A study of Mus musculus and Homo sapiens with 18 samples.

Results

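The 10 genes described here encode the inducible catalytic subunits of the immunoproteasome (Psmb8, Psmb9 and Psmb10), the activators PA28 (Psme1 and Psme2) and PA200 (Psme4), the constitutive catalytic subunits (Psmb5, Psmb6 and Psmb7) and the assembly chaperone Pomp. They were chosen by name, and all 10 were present among the 46882 genes of the lens table, the 54838 genes of the table of lens progenitor-like cells made from neural stem cells (NLPCs) and, as upper-case symbols, the 60880 genes of the table of HLE-B3 cells. The study removed Qki, an RNA-binding protein encoded by Qk in mouse and QKI in human, and asked how its loss changes lens cells. RNA was sequenced from 3 libraries per group in each system, and each deletion was compared with its own control.

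In the lens, Ctrl mice carried Nestin-CreERT2 and QkL/+, and Qk-iCKO mice carried Nestin-CreERT2 and QkL/L. Mice of both groups were given tamoxifen about a week after birth and their lenses were dissected in the third postnatal week. The Cre is driven by the Nestin promoter, so that cells of the eye that never used this promoter keep Qk, and the Ctrl lenses also carried the Cre and 1 floxed allele. NLPCs were primary mouse cells labelled WT or Qk-/-. By the methods, neural stem cells were taken from whole brains of newborn mice with Nestin-CreERT2 and QkL/L, Qk was deleted with 4-hydroxytamoxifen, and the cells were differentiated with Noggin and then with bFGF, BMP4 and BMP7. HLE-B3 is an immortalized human lens epithelial cell line, and its QKI KO cells were made with CRISPR in a lentivirus and enriched with puromycin. The study states in general terms that its animal and cell line replicates were independent, and the labels do not say so of these cell libraries. Whether the QKI KO libraries come from 1 clone, and how the replicate cultures were separated, is not given in the sources used here, and the p-values measure the spread between these samples.

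The proteasome degrades ubiquitin-tagged proteins in a barrel of stacked rings whose inner rings hold the catalytic subunits. Interferon-gamma induces replacement subunits that enter newly assembled barrels in place of the constitutive ones and favour peptides that fit MHC class I: Psmb9 replaces Psmb6, Psmb10 replaces Psmb7 and Psmb8 replaces Psmb5. Leukocytes make these subunits at rest, whereas the lens is a tissue without blood vessels whose fibre cells lose their organelles and keep their proteins for life.

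Total counts were 10319320 to 16425331 per library in the lens, 28154202 to 68243360 in NLPCs and 69190864 to 81384471 in HLE-B3 cells. Qk was not called in the lens (log2 fold change -0.31 ± 0.14 (SE), adjusted p = 0.2, edgeR), was higher in the NLPC libraries labelled Qk-/- (0.41 ± 0.09, adjusted p = 0.027, edgeR), which goes against the label at the level of the whole gene, and QKI was lower in the QKI KO libraries (-1.34 ± 0.05, adjusted p = 1.85e-11, edgeR). The floxed mouse allele has loxP sites around exon 2, whereas the counts cover the whole gene. The study reported loss of Qki staining in NLPCs after the deletion. Exon-level counts, which could show a deleted exon, were not analysed here. Qk-iCKO lens 1 and the second Qk-/- library stood apart from the others of their groups, and the members' results that rest on them are given with and without them. Lens markers summed to 203745 to 224304 CPM (counts relative to the TMM-scaled library size) in Ctrl lenses, and 6 of 12 passed the filter in each cell system, with sums of 222 to 232 CPM in WT NLPCs and 625 to 733 CPM in WT HLE-B3 cells. Of the single markers, Foxe3 had 0 counts in WT NLPCs and CRYAA had 0 counts in every HLE-B3 library. Y-linked genes had 3 counts or fewer in each Ctrl lens and in Qk-iCKO lens 1, but 1051 and 930 counts in Qk-iCKO lenses 2 and 3.

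The start regions of the inducible genes are shown first because the members that moved most in lens and in HLE-B3 cells, Psmb8 and Psmb9, lie beside each other in the MHC region, on mouse chromosome 17 and human chromosome 6. Each window runs from 250 bases before to 50 bases after a start. Mouse windows are those of RefSeq on GRCm38.p6, and human windows were read from GRCh37 around the start of the canonical transcript of GENCODE. Capitals mark matches on either strand to the gamma-activated site (GAS, TTCNNNGAA) or to the core of the interferon-stimulated response element (ISRE, GAAANNGAA).
Psmb8, chr17:34197945-34198244, plus strand: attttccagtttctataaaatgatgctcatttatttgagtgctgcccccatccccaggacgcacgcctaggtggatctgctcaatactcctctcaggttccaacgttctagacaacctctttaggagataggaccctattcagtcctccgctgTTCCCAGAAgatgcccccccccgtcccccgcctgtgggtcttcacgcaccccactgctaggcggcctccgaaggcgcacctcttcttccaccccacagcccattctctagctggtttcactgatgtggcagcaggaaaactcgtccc
Psmb9, chr17:34187281-34187580, minus strand: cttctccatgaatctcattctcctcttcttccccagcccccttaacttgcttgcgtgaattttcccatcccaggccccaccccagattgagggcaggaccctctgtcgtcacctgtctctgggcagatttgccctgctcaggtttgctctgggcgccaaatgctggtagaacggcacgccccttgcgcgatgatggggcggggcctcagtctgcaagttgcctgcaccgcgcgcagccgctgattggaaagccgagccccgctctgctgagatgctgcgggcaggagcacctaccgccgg
PSMB8, chr6:32811775-32812074, minus strand: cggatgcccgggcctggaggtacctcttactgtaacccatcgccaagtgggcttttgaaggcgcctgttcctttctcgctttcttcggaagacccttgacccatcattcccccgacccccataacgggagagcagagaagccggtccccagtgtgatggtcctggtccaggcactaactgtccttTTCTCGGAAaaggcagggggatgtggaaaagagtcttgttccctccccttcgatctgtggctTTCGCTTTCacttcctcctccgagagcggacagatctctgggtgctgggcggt
PSMB9, chr6:32821719-32822018, plus strand: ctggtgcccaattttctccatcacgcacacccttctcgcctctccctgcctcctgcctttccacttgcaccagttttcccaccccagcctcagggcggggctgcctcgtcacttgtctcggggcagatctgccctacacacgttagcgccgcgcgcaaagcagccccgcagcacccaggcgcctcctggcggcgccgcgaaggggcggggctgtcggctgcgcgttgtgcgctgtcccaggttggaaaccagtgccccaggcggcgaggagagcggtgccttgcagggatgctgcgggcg
PSMB5, chr14:23504060-23504359, minus strand, shown as the constitutive counterpart of PSMB8: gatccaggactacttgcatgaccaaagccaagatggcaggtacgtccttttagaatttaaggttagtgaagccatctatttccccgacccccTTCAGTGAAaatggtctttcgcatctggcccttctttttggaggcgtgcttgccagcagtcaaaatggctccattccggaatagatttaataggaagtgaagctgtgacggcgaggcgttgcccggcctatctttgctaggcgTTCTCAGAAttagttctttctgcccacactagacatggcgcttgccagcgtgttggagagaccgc

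The Psmb8 window held a GAS match that began 97 bases before the start, and the PSMB8 window held a GAS match 65 bases and an ISRE match 3 bases before it. Neither motif matched in the windows of Psmb9 and PSMB9, whereas the constitutive PSMB5 had 2 GAS matches. ISRE matches also lay in the windows of PSMB10, PSME1, PSME2 and POMP in human and of Psme1 and Pomp in mouse, and no ISRE match overlapped a GAS match. Among all windows of the same length, GAS matched 8.3% of 32851 in mouse and 6.51% of 19874 in human, and ISRE matched 8.56% and 7.01%. The antioxidant response element TGACNNNGC, also searched, matched Psme4, Psmb5 and Psmb6 in mouse and PSMB9, PSME1, PSME2, PSME4 and PSMB6 in human, against 12.4% and 14% of all windows. Windows were found for 9 of the 10 mouse genes, all but Psmb7, and for all 10 human genes. A match is a description of letters and was not tested as a binding site.

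In the lens, the inducible catalytic subunits were higher in Qk-iCKO mice, while the PA28 and PA200 activators, the constitutive catalytic subunits and Pomp did not pass the test. Of the 9 members that passed the filter on low counts, 2 were called, Psmb8 and Psmb10, both higher. All genes gave 12.3% called in either direction, 8.38% higher and 3.88% lower, and 35.3% of them had groups that did not overlap. Of the called genes 68.4% were higher, and 86.9% with total counts alone, which moved the median of all genes from 0.01 to 0.29.

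Psmb8 (chr17:34197721-34201454, GRCm38) encodes the inducible chymotrypsin-like subunit. Its normalized counts (counts scaled to the mean library) were 1.07, 0.917 and 0.883 in Ctrl lenses and 24.5, 26.2 and 20.8 in Qk-iCKO lenses. Each Ctrl library had a single read, against 31, 21 and 16 reads in Qk-iCKO, so that the groups were far apart and the gene passed the filter only through the deletion group. The ratio of the group totals was 25.2 (exact 95% interval 8.28 to 125, counting error only), and the adjusted p was 0.00108 (edgeR). The call held with each single library left out (adjusted p 0.00416 to 0.0136, edgeR).

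Psmb9 (chr17:34181987-34187764), the inducible subunit that replaces Psmb6, did not pass the filter. It had 0 reads in all 3 Ctrl lenses and 7, 12 and 5 reads in Qk-iCKO lenses. Against a floor of 3 counts over the Ctrl group it was at least 8.90-fold higher, and the lower limit of the exact 95% interval of the ratio was 6.70. With every gene of at least 1 count in the fit its adjusted p was 0.00213 (edgeR), and 0.00597 in DESeq2. Exons of Psmb9 share 212 bases with Tap1 on the other strand, and those of Psmb8 share 498 bases with Gm20496.

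Psmb10 (chr8:105935735-105938444), the inducible trypsin-like subunit, had normalized counts of 37.3, 22.9 and 22.1 in Ctrl and 71.8, 56.0 and 52.0 in Qk-iCKO lenses. The groups did not overlap and Qk-iCKO lens 1 was highest. The log2 fold change was 1.14 ± 0.29 (SE), with an adjusted p of 0.0435 (edgeR). This call was lost with each single library left out (adjusted p 0.0533 to 0.146, edgeR) and with total counts in place of TMM factors (adjusted p = 0.0836, edgeR), while the log2 fold change stayed between 0.98 and 1.47.

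The PA28 subunits form a ring that opens the catalytic barrel and are induced by interferon-gamma in many cells. Psme1 had normalized counts of 180, 209 and 190 in Ctrl and 220, 234 and 214 in Qk-iCKO lenses, without overlap, and a log2 fold change of 0.21 ± 0.13 (adjusted p = 0.345, edgeR). Psme2 ranged from 74.2 to 90.8 in Ctrl and from 69.5 to 97.1 in Qk-iCKO lenses (log2 fold change 0.09, adjusted p = 0.807, edgeR). Psme4, whose product PA200 caps proteasomes in the nucleus, ranged from 1791 to 2006 and from 1630 to 2144 (0.02, adjusted p = 0.944, edgeR).

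The constitutive subunits had more reads than the inducible ones. Psmb5, the chymotrypsin-like subunit that Psmb8 replaces, had normalized counts of 655, 665 and 641 in Ctrl and 259, 509 and 513 in Qk-iCKO lenses. Its groups did not overlap, with lens 1 lowest, and its log2 fold change was -0.62 ± 0.26 (adjusted p = 0.163, edgeR). The log2 fold changes of Psmb6 and Psmb7 were -0.17 and -0.36, with overlapping groups and adjusted p of 0.697 and 0.315 (edgeR). Pomp, which helps the catalytic rings to close, ranged from 949 to 1240 in Ctrl and from 567 to 1334 in Qk-iCKO (-0.03, adjusted p = 0.964, edgeR). Qk-iCKO lens 1 held the lowest level of Psme2, Psme4, Psmb5, Psmb6, Psmb7 and Pomp, and its summed level of the 3 constitutive subunits was 134 CPM against 231 and 233 in the other Qk-iCKO lenses and 236 to 272 in Ctrl. Its TMM factor was 1.48, and crystallin reads made up 56.3% of it against 64.7 to 66.9% elsewhere. Without it, the log2 fold changes were -0.35 for Psmb5, 0.07 for Psmb6, -0.17 for Psmb7 and 0.27 for Pomp, still without a call, and 0.98 for Psmb10 and 4.45 for Psmb8.

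**Figure D1:**
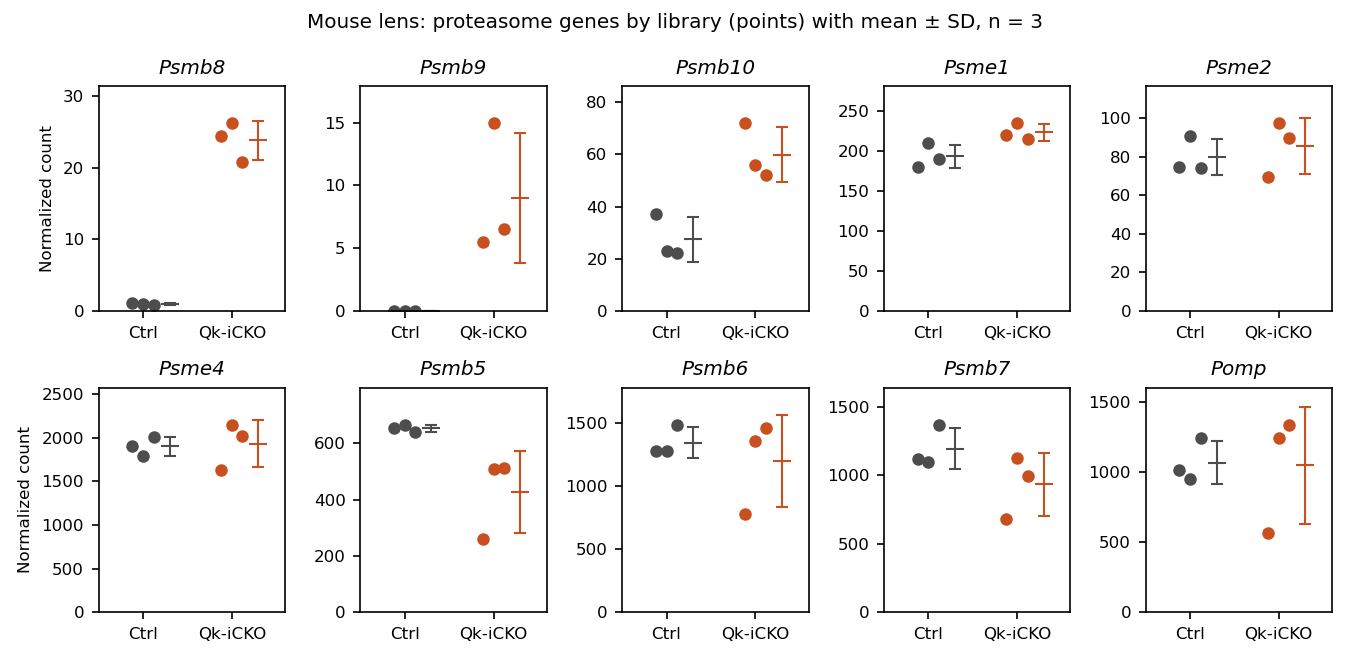
Normalized counts (vertical axes, from 0) of the 10 genes in 3 Ctrl and 3 Qk-iCKO lenses, with points for libraries and bars for the mean ± SD. The Qk-iCKO points of Psmb8, Psmb9 and Psmb10 sit above all Ctrl points, while a single Qk-iCKO lens, lens 1, is far below the rest for Psmb6 and Pomp.

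On the scale of CPM per kilobase of exon, the order of levels in Ctrl lenses was Psmb5 (56.5 ± 1.04, SD, n = 3), Psmb6 (56.0 ± 5.0), Psmb7 (27.2 ± 3.41), Psme4 (17.6 ± 0.994), Pomp (15.9 ± 2.28), Psme1 (6.79 ± 0.519), Psme2 (3.52 ± 0.417), Psmb10 (1.25 ± 0.390) and Psmb8 (0.0220 ± 0.00224), with Psmb9 at 0. Neighbours Psmb5 and Psmb6, and Psme4 and Pomp, lay within their spread. Even in Qk-iCKO lenses the inducible genes stayed at the bottom of this order, at 0.547 ± 0.063 for Psmb8, 0.191 ± 0.11 for Psmb9 and 2.73 ± 0.479 for Psmb10.

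Leukocyte markers moved with the inducible genes in the lens. Of 16 markers, 13 passed the filter and all 13 were called higher (edgeR), against 8.38% of all genes. Of the 13, 11 had fewer than 10 reads in every Ctrl lens and so passed the filter only through the Qk-iCKO group, which fixed their direction. The largest changes were those of Cd52, Tyrobp, Itgb2 and Cd68. Cd68, a lysosomal protein of macrophages, had normalized counts of 2.13, 1.83 and 2.65 in Ctrl and 196, 67.3 and 201 in Qk-iCKO lenses. Tyrobp, a signalling adaptor of myeloid cells, had 0, 0 and 3.53 against 100, 95.9 and 117. The summed level of the list was 1.99 to 4.94 CPM in Ctrl and 117, 87.0 and 121 in Qk-iCKO lenses 1, 2 and 3, in which the summed level of the 3 inducible subunits was 7.92, 7.55 and 6.16. The T cell gene Cd3e had 0 counts in every lens, and Aif1 and Cd52 had 0 counts in Ctrl. The part of these cells in the rise of Psmb8, Psmb9 and Psmb10 was not tested, and in whole lenses more cells of a type and more RNA per cell cannot be told apart. Endothelial markers had 2 of 4 tested genes called higher. Of 11 tested lens markers, edgeR called 1 lower, the water channel Mip, and DESeq2 called 4. Of the 11, 10 were below 0 and 5 were lower without overlap, against 35.3% of all genes without overlap in either direction. Their summed level was 113336 to 183519 CPM in Qk-iCKO lenses, below all Ctrl lenses. Of 4 tested neural stem cell markers, Nes was called higher. Over all genes, 8.38% were called higher and 3.88% lower. The retina and pigmented epithelium markers summed to 1.85 to 284 CPM in Ctrl and 11.7 to 94.3 in Qk-iCKO.

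Genes that act with the immunoproteasome in antigen presentation rose with it in the lens. Of the peptide loading genes, 3 of 4 were called higher, against 8.38% of all genes. Their median log2 fold change was 2.46, against 0.01 over all genes tested. In every Ctrl lens 1 of the 4 had fewer than 10 reads. It passed the filter only through the Qk-iCKO group, which fixed its direction. B2m, the light chain of MHC class I, rose by 3.21 on the log2 scale (adjusted p = 0.000173, edgeR), with normalized counts of 42.2 to 55.4 in Ctrl and 401 to 508 in Qk-iCKO lenses. Tap2, a subunit of the peptide transporter, and Tapbp, its link to MHC class I, rose by 2.86 and 1.46, while Tap1, the neighbour of Psmb9, had a value of 2.07 with an adjusted p of 0.0523 (edgeR).

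Of the 9 tested genes of the interferon-gamma axis, 5 were called higher and 1 lower, against 8.38% and 3.88% of all genes. The median log2 fold change of the 9 was 1.10. In every Ctrl lens 1 of the 9 had fewer than 10 reads. That gene passed the filter only through the Qk-iCKO group, which fixed its direction. The higher ones were Socs1 (2.64), an inhibitor of Janus kinases, the transcription factors Irf1 (1.95) and Irf8 (1.42), the receptor chain Ifngr1 (1.23) and the kinase Jak2 (1.10). Ifng itself had 0 counts in all 6 lenses, and Nlrc5, the activator of MHC class I genes, had a value of -0.01.

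The rest of the proteasome gave no call in the lens. None of 29 other genes of the 20S barrel and its 19S cap was called by edgeR or DESeq2, and 2 had an unadjusted p under 0.05. Their median log2 fold change was -0.23, from -0.50 to 0.10, and 7 of the 29 were lower without overlap, a smaller share than the 35.3% of all genes without overlap in either direction. Without Qk-iCKO lens 1 the median was -0.10, and again 7 were lower without overlap. With total counts alone the median was 0.03, so that its sign turned with the scaling. It stayed below the median of all genes, which was 0.01 with TMM factors and 0.29 with total counts alone. Of 10 assembly and regulator genes none was called by either tool, and 1 had an unadjusted p under 0.05 (edgeR).

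In NLPCs, Psmb10 was lower in the libraries labelled Qk-/-, opposite to its direction in the lens, and Psmb8 and Psmb9 were not called. All 3 constitutive subunits were lower without overlap but short of the threshold in edgeR. A test of the difference from the lens, given below, called none of these 3. With all 10 members tested, 1 was called, against 10.7% of all genes in either direction, 4.74% higher and 5.96% lower. The groups of 5 members did not overlap, all lower, against 35.2% of all genes.

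Psmb10 had normalized counts of 876, 932 and 1002 in WT and 558, 520 and 669 in Qk-/- libraries. All 3 Qk-/- values lay below WT, and the log2 fold change was -0.68 ± 0.14 (adjusted p = 0.0195, edgeR). The call was lost without any one of the WT libraries or without the first Qk-/- library (adjusted p 0.0786 to 0.132, edgeR), while the value stayed between -0.82 and -0.61. Psmb9 had normalized counts of 230, 167 and 249 in WT and 353, 247 and 299 in Qk-/- libraries. These groups overlapped by a narrow margin (log2 fold change 0.48 ± 0.24, adjusted p = 0.245, edgeR).

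Psmb8 depended on a single library. It had normalized counts of 21.3, 24.2 and 10.2 in WT and 3.87, 84.8 and 26.4 in Qk-/- libraries, so that the Qk-/- group held both the lowest and the highest value. The log2 fold change of 1.03 ± 1.04 (adjusted p = 0.573, edgeR) turned to -0.28 without the second Qk-/- library.

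Of the constitutive subunits, Psmb5 had normalized counts of 432, 487 and 432 in WT and 271, 179 and 336 in Qk-/- libraries (log2 fold change -0.77 ± 0.24, adjusted p = 0.0791, edgeR). Psmb6 had 8066, 10036 and 9621 against 5890, 3827 and 7032 (-0.73 ± 0.21, adjusted p = 0.0623, edgeR). Psmb7 had 5596, 5836 and 6145 against 4486, 2606 and 5171 (-0.52 ± 0.22, adjusted p = 0.18, edgeR). In each of them the second Qk-/- library was lowest. Without that library all 3 were called lower, with smaller values of -0.56, -0.51 and -0.27 (adjusted p = 0.0413, 0.00995 and 0.0471, edgeR), and 4 members were called in all. Without the third Qk-/- library only Psmb6 of these 3 was called (adjusted p = 0.0423, edgeR). With any one of the other libraries left out, none of the 3 was called (adjusted p 0.136 to 0.436, edgeR). DESeq2 called Psmb5 (adjusted p = 0.0492) and Psmb6 (adjusted p = 0.00448), and edgeR with every gene of at least 1 count called all 3 (adjusted p = 0.031, 0.000314 and 0.0182). With only genes of at least 10 counts in every library, edgeR called Psmb6 (adjusted p = 0.0378). None of the 3 was called with total counts alone or with a replicate block (adjusted p 0.0536 to 0.204, edgeR). Pomp was lower without overlap, at 4559 to 4765 in WT and 3480 to 4494 in Qk-/- libraries (-0.19, adjusted p = 0.328, edgeR). The activators stayed within overlapping ranges, with log2 fold changes of -0.13 for Psme1, 0.02 for Psme2 and 0.02 for Psme4. Psme2b, a near-identical copy of Psme2, had normalized counts of 3.16 to 33.7 in NLPCs, against 903 to 1146 for Psme2, and 0 counts in every lens.

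**Figure D2:**
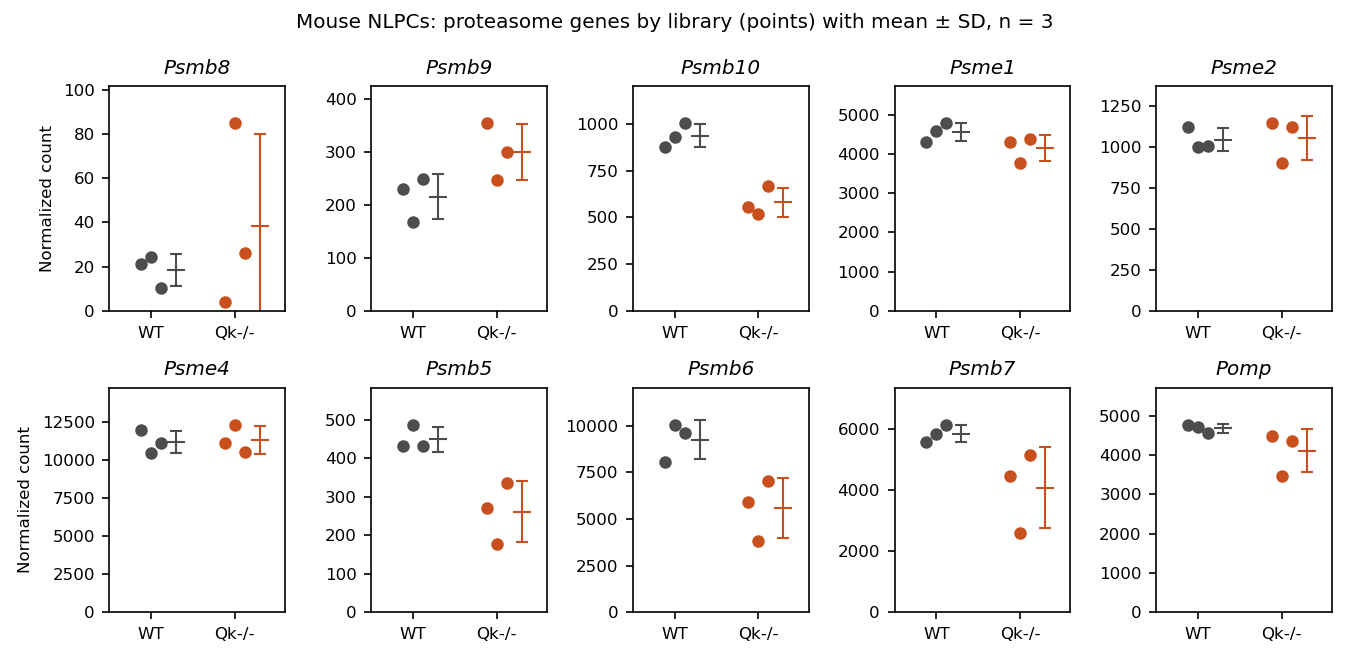
Normalized counts (vertical axes, from 0) of the 10 genes in 3 WT and 3 Qk-/- NLPC libraries, with points for libraries and bars for the mean ± SD. The Qk-/- points of Psmb10, Psmb5, Psmb6, Psmb7 and Pomp lie below every WT point, and those of Psmb8 spread from 3.87 to 84.8.

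Per kilobase, WT NLPCs ordered the genes as Psmb6 (91.5 ± 10.3 CPM per kilobase, SD, n = 3), Psme1 (38.3 ± 1.97), Psmb7 (31.7 ± 1.49), Psme4 (24.7 ± 1.62), Pomp (16.6 ± 0.383), Psme2 (11 ± 0.74), Psmb10 (10.2 ± 0.683), Psmb5 (9.28 ± 0.659), Psmb9 (1.09 ± 0.217) and Psmb8 (0.102 ± 0.0405). Psme2, Psmb10 and Psmb5 were neighbours whose differences were close to their spread. On this scale Psmb10 was at the level of Psmb5 in these cells, and below Psmb7, which it replaces, and Psmb6. Before division by exon length, Psmb10 had 17.4 CPM and Psmb5 8.34 CPM in WT. In mouse, exons of Psmb5 share 109 of 899 bases with Mir686 on the same strand, so that its level is uncertain to that extent.

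The other 29 proteasome genes of NLPCs had values mostly below 0. Their median log2 fold change was -0.27, against 0.04 over all genes, 28 of 29 were below 0 and 18 were lower without overlap, against 35.2% of all genes without overlap in either direction. Without the second Qk-/- library the median was -0.23, and 21 were lower without overlap. By edgeR 3 of the 29 were called lower, against 5.96% of all genes called lower and 10.7% called in either direction: Psmd11 (-0.48), Psmc6 (-0.38) and Psmc2 (-0.34), of which the last 2 are ATPases of the cap that unfold substrates. This count depended on the setting: it was 1 with a replicate block, 10 in DESeq2 and 0 with total counts alone. With 1 library left out, it was 11 without the second Qk-/- library and 3 without the third. It was 0 without any one of the WT libraries or without the first Qk-/- library. Nfe2l1, the transcription factor that raises proteasome genes when degradation is impaired, was the only one of 10 assembly and regulator genes called by edgeR, and was higher (0.36, adjusted p = 0.0289, edgeR).

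The genes around antigen presentation moved little in NLPCs. Of the 4 peptide loading genes, Tap2 and Tapbp were called higher, by 0.50 and 0.36. Nlrc5 was the only one of 9 tested interferon-gamma axis genes called, higher by 0.72 (adjusted p = 0.0463, edgeR). All genes gave 10.7% called in either direction, 4.74% higher and 5.96% lower. With total counts alone, 1 of the 4 peptide loading genes and 0 of the 9 axis genes were called. Leukocyte markers summed to 10.6 to 12.6 CPM in WT and 14.4 to 22.3 in Qk-/- libraries, highest in the second one. None of the 8 tested was called by edgeR, 1 had an unadjusted p under 0.05, and DESeq2 called 1. Neural stem cell markers moved too, with Slc1a3 (-1.66), Gfap (-1.38) and Sox2 (-0.34) of 5 called lower and a summed level of 5320 to 5889 in WT and 2856 to 3430 in Qk-/- libraries. Of 6 tested lens markers, Maf was higher and Cryab lower. The part of these cell states in the values of the proteasome genes was not tested.

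Whether the effects differed between lens and NLPCs was tested as an interaction in a joint fit of 16675 genes, of which 8.53% were called. Of the 10 members, 2 were called, Psmb9 (adjusted p = 0.00819, edgeR) and Psmb10 (difference of -1.74 ± 0.31, NLPC minus lens, adjusted p = 0.00445, edgeR). Since Psmb9 had no read in Ctrl lenses, its fitted difference depends on the prior count and is no measure of size. For Psmb8 the adjusted p was 0.14 (edgeR), and 0.0211 (edgeR) without the second Qk-/- library. The other 7 had adjusted p of 0.363 or more (edgeR).

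In HLE-B3 cells, the inducible subunits PSMB8 and PSMB9 and the activator subunit PSME2 were lower in QKI KO cells, and the constitutive PSMB5 and PSMB6 and the chaperone POMP were higher. Of 10 members tested, 6 were called, 3 in each direction, and each alternative and each library left out gave 6. The background was high: 33.3% of all genes were called in either direction, 17% higher and 16.3% lower, and 44.6% had groups that did not overlap.

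PSMB8 (chr6:32808494-32812456, GRCh37) had normalized counts of 299, 385 and 278 in WT and 140, 211 and 150 in QKI KO libraries. The groups did not overlap, and the log2 fold change was -0.94 ± 0.22 (adjusted p = 0.0028, edgeR). PSMB9 (chr6:32811913-32827628) had 255, 300 and 223 in WT and 120, 115 and 94.5 in QKI KO, with every QKI KO value below WT. Its log2 fold change was -1.24 ± 0.23 (adjusted p = 0.000387, edgeR). PSMB10 ranged from 76.0 to 99.0 in WT and from 74.4 to 91.5 in QKI KO libraries, with overlap (-0.11 ± 0.31, adjusted p = 0.842, edgeR). Exons of PSMB8 share 602 bases with the antisense PSMB8-AS1 and 139 bases with PSMB9, those of PSMB9 share 174 bases with PSMB8-AS1 on the same strand, and those of PSMB10 share 640 bases with another gene on the same strand, so that their levels are uncertain to that extent.

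PSME2 had normalized counts of 3584, 3650 and 2979 in WT and 2792, 2670 and 2670 in QKI KO libraries. It fell by 0.33 on the log2 scale, without overlap (adjusted p = 0.00431, edgeR). Its partner PSME1 ranged from 4248 to 5243 in WT and from 4420 to 4561 in QKI KO (-0.05, adjusted p = 0.679, edgeR), so that the PA28 subunits differed in their calls, a difference that was not tested. PSME4 ranged from 12168 to 16126 and from 11743 to 15562, with overlap (-0.09, adjusted p = 0.554, edgeR).

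PSMB5 had normalized counts of 3195, 2724 and 2664 in WT and 3795, 3595 and 3880 in QKI KO libraries. Every QKI KO value lay above WT, and the gene rose by 0.39 ± 0.08 on the log2 scale (adjusted p = 0.000802, edgeR). PSMB6 had 3324, 3528 and 3283 against 4221, 3986 and 4411 (0.32 ± 0.07, adjusted p = 0.00142, edgeR). PSMB7 ranged from 5026 to 5282 and from 4914 to 5977, with overlap (0.09, adjusted p = 0.41, edgeR). POMP had 4452, 4276 and 4294 against 5426, 6250 and 5811, without overlap, and rose by 0.43 ± 0.07 (adjusted p = 8.63e-05, edgeR).

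**Figure D3:**
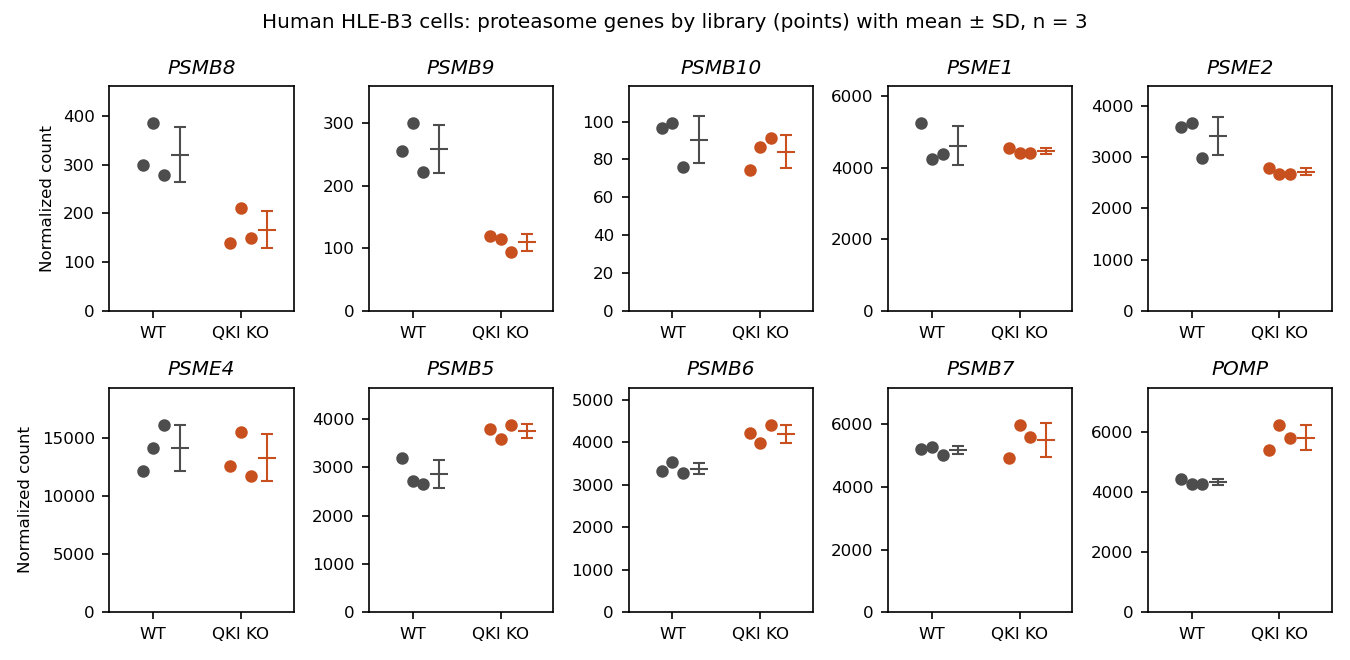
Normalized counts (vertical axes, from 0) of the 10 genes in 3 WT and 3 QKI KO HLE-B3 libraries, with points for libraries and bars for the mean ± SD. PSMB8, PSMB9 and PSME2 have QKI KO points below all WT points, and PSMB5, PSMB6 and POMP have them above.

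Per kilobase, WT HLE-B3 cells held PSMB7 (39.3 ± 1.02 CPM per kilobase, SD, n = 3), PSME1 (35.4 ± 4.11), PSMB6 (31.7 ± 1.23), PSMB5 (25.1 ± 2.55), PSME4 (18.5 ± 2.59), PSME2 (12.9 ± 1.40), POMP (12 ± 0.267), PSMB8 (1.25 ± 0.220), PSMB9 (1.05 ± 0.158) and PSMB10 (0.755 ± 0.105). PSME1 and its neighbours on both sides, PSME2 and POMP, and PSMB8 and PSMB9 lay within their spread. The inducible genes were again the lowest of the 10.

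Of 29 other proteasome genes in HLE-B3 cells, 14 were called by edgeR, all higher, against 17% of all genes called higher, and 16 were called by DESeq2. Of the 29, 2 were below 0, 1 of them without overlap, and their median log2 fold change was 0.18, against -0.02 over all genes. The largest were PSMA7 (0.66), PSMB3 (0.615), ADRM1 (0.60), a ubiquitin receptor of the cap, and PSMD11 (0.36). Of the regulators, NFE2L1 rose by 0.88 and PSME3, the nuclear relative of PA28, by 0.50. All 4 peptide loading genes fell, TAPBP by 1.13, TAP1 by 1.00, B2M by 0.94 and TAP2 by 0.68 on the log2 scale, with a median of -0.97. All 4 were called lower, against 16.3% of all genes.

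Of 8 tested genes of the interferon-gamma axis, 3 were called lower and 2 higher, against 16.3% and 17% of all genes. The median log2 fold change of the 8 was -0.23. NLRC5 fell by 1.19 and IRF1, a factor that binds the start regions of immunoproteasome genes, by 1.03, with IRF1 at 3324 to 3769 normalized counts in WT and 1719 to 1821 in QKI KO. JAK1 fell by 0.35, whereas IFNGR2 rose by 0.83 and JAK2 by 0.44. IFNG had 0 counts in every library. Leukocyte markers were scarce, with a summed level of 5.02 to 6.07 CPM in WT and 2.84 to 3.51 in QKI KO. PTPRC, CD53, TYROBP, ITGAM and CD3E had 0 counts in WT, and of 5 tested markers CSF1R and CD52 were lower. Of 6 tested lens markers, CRYAB was called higher and MAF, GJA3 and PROX1 lower. By comparison, 33.3% of all genes were called in either direction, 17% higher and 16.3% lower.

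**Figure D4:**
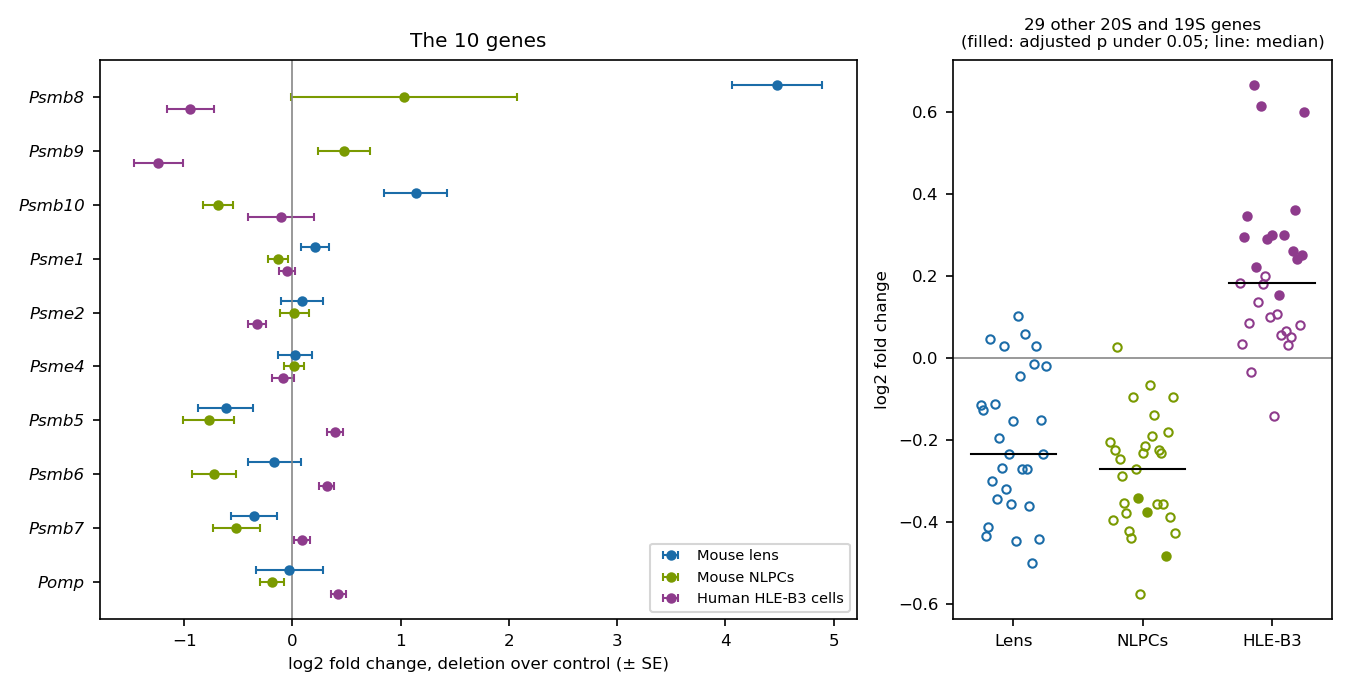
Left, log2 fold change of deletion over control (horizontal axis) with its SE for the 10 genes (rows) in each system, with Psmb9 missing for the lens where it was not tested. Right, log2 fold changes of the 29 other 20S and 19S genes (vertical axis), filled where called, with medians of -0.23, -0.27 and 0.18 from left to right.

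The inducible and constitutive subunits were also set against each other within a library, as the ratio of counts per exon base, which needs no scaling between libraries. No p is given for these ratios, since the genes were chosen with results known. In the lens, Psmb8 over Psmb5 was 0.0433, 0.0367 and 0.0366% in Ctrl and 2.51, 1.37 and 1.08% in Qk-iCKO. Psmb10 over Psmb7 was 6.68, 4.20 and 3.24% against 21.1, 9.95 and 10.5%. Both ratios separated the groups, with log2 differences of 5.32 and 1.53 (4.97 and 1.19 without Qk-iCKO lens 1), and Psmb9 over Psmb6 went from 0 in each Ctrl lens to 0.361, 0.562 and 0.227%.

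In NLPCs, Psmb9 over Psmb6 was 1.46, 0.851 and 1.32% in WT and 3.07, 3.30 and 2.18% in Qk-/- libraries, again without overlap, with a log2 difference of 1.25. The mean of Psmb6 was lower and that of Psmb9 higher in Qk-/- libraries. Psmb10 over Psmb7 was 31.4 to 32.7% in WT and 24.9 to 40.0% in Qk-/- libraries, and overlapped. Psmb8 over Psmb5 ranged from 0.628 to 1.32% in WT and from 0.380 to 12.6% in Qk-/- libraries, the highest in the second library, and its log2 difference of 1.07 turned to -0.21 without it.

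In HLE-B3 cells the ratios went the other way. PSMB9 over PSMB6 was 3.33, 3.68 and 2.94% in WT and 1.23, 1.25 and 0.929% in QKI KO, and PSMB8 over PSMB5 was 4.17, 6.29 and 4.65% against 1.64, 2.62 and 1.72%. Neither overlapped, with log2 differences of -1.55 and -1.35. PSMB10 over PSMB7 ranged from 1.66 to 2.06% in WT and from 1.59 to 1.80% in QKI KO, with overlap. The difference between lens and HLE-B3 cells, which were counted in tables of different species, was not tested.

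**Figure D5:**
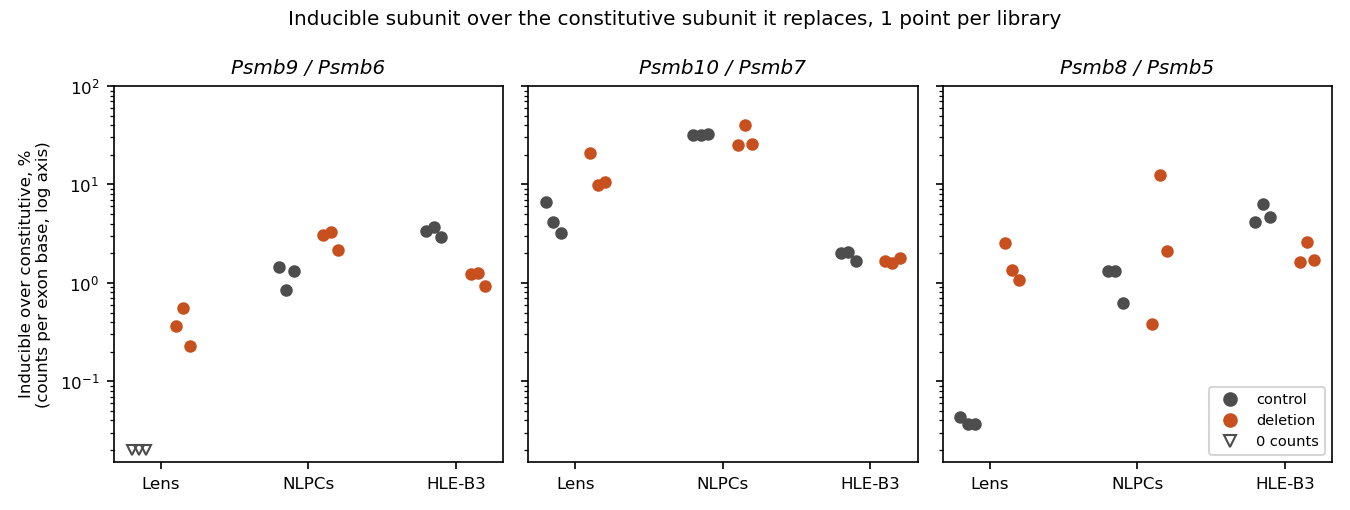
Ratio of each inducible subunit to the constitutive subunit it replaces, in percent on a log axis, with 1 point per library and open triangles for 0 counts. Psmb8 over Psmb5 rises from about 0.04% in Ctrl lenses to 1.08 to 2.51% in Qk-iCKO lenses, and falls in QKI KO HLE-B3 cells.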

How the data were processed

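The members and gene lists were chosen with earlier results of these data known. The deposited tables, 1 per system, hold raw counts for each gene. The authors aligned stranded paired-end reads with STAR 2.6.1b to mm10 or hg19 and counted genes with HTSeq 0.11.0, and the submitters' processing notes also name HISAT2 2.0.4 and featureCounts without a role. The counting strand setting and annotation release are not given in the sources used here. 

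Each table was fitted with edgeR 4.0.16 in R 4.3.3 (filterByExpr with 10 and 15 counts as its minimums, TMM factors, quasi-likelihood test, no covariate, Benjamini-Hochberg over all genes tested, called under 0.05). DESeq2 1.42.0 was an alternative. Folds against a group at 0 used a floor of 3 counts over the group, and intervals cover counting error only. Exon lengths and coordinates came from GENCODE M21 (GRCm38) and v44lift37 (GRCh37). Lengths merge all annotated exons of a gene, such as 899 bases for Psmb5 and 3381 for Psmb8 in mouse. Levels per kilobase and the size of ratios between genes depend on these lengths. At 3 libraries per group the smallest exact permutation p would be 0.1, so none was run. The steps were tested on simulated data.

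Same-numbered libraries deviated together in lens (correlations of 0.24, 0.13 and 0.52) and NLPCs (0.14, 0.37 and 0.16), so a replicate block was fitted. In HLE-B3 cells these were 0.06, 0.06 and -0.05. The pairing comes from the data, since the labels give only a number.

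Named genes were all 10 members in each system, Qk or QKI, of each other list at most 4 called genes per system by size of change and any count of 5 or fewer, and the 5 genes most like the inducible subunits. Cd3e, Aif1, Nlrc5, Tap1, Ifng, Foxe3, CRYAA, Psme2b and markers at 0 were named for their values, outside this rule. Some genes that this rule names are not reported here.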

Additional observations from a re-analysis of the deposited data

Results flagged for a closer look

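The effects in NLPCs and lens differed by the interaction test of edgeR for Psmb9 (fitted difference -8.59, NLPC minus lens, log2, which depends on the prior count since no Ctrl lens had a read) and for Psmb10 (-1.74).

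Members whose groups separated in opposite directions were set against HLE-B3 cells, and these differences were not tested. Psmb8 and Psmb9 were higher in Qk-iCKO lenses, while PSMB8 had a log2 fold change of -0.94 and PSMB9 of -1.24 in QKI KO cells. Psmb5 was lower in lens and NLPCs and PSMB5 had a value of 0.39 in HLE-B3 cells. Psmb6 and Pomp were lower in NLPCs, against 0.32 for PSMB6 and 0.43 for POMP. The ratio of Psmb8 to Psmb5 was higher in lens, and that of Psmb9 to Psmb6 in lens and NLPCs, against log2 differences of -1.35 and -1.55 in HLE-B3 cells. Since the members were chosen with results known and share libraries, these are not independent of each other.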

How the results depend on the processing

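The counts of members called were 2 in lens, 1 in NLPCs, 6 in HLE-B3 cells and 2 for the difference between lens and NLPCs. In lens the count was 1 with total counts alone, where the median of all genes shifted to 0.29, and 1 with only genes of at least 10 counts in every library, which leaves out Psmb8. It was 1 to 1 with each library left out. In NLPCs it was 4 with every gene of at least 1 count, 2 with only genes of at least 10 counts in every library and 3 in DESeq2, and 0 to 4 with each library left out. The count of differences between lens and NLPCs fell to 1 with only genes of at least 10 counts in every library, and was 2 to 3 with each library left out, an alternative chosen after seeing the data. With a replicate block the counts were 2, 1, 6 and 2, and the block changed no call of a member, but moved the count of other NLPC proteasome genes from 3 to 1. In lens, total counts alone turned Psmb6 to 0.044 and Pomp to 0.16, and Psme4 was -0.00074 with every gene and -0.0046 in DESeq2. In NLPCs, every gene turned Psme2 to -0.0059 and Psme4 to -0.014. With each library left out, values that changed sign ranged in lens from -0.017 to 0.23 for Psme2, -0.063 to 0.13 for Psme4, -0.34 to 0.068 for Psmb6 and -0.25 to 0.27 for Pomp, in NLPCs from -0.28 to 1.56 for Psmb8, -0.049 to 0.12 for Psme2 and -0.043 to 0.053 for Psme4, and in HLE-B3 cells from -0.10 to 0.067 for PSME1 and -0.21 to 0.022 for PSME4. The log2 difference in the NLPC ratio ranged from -0.33 to 0.0076 for Psmb10 over Psmb7 and from -0.21 to 2.32 for Psmb8 over Psmb5. Of the alternative values of member fold changes, 98 of 116 in lens, 96 of 119 in NLPCs and 117 of 120 in HLE-B3 cells kept direction and side of the threshold. Over all genes, calls numbered 1496 in lens, 884 with total counts alone, 2521 with every gene, 581 to 690 without a Ctrl library and 1334 to 1709 without a Qk-iCKO library. They numbered 2179 in NLPCs, 3826 in DESeq2, 681 to 896 without a WT library or the first Qk-/- library, 1422 without the third and 3797 without the second. For the difference between lens and NLPCs they numbered 1423, 2290 in DESeq2 and 872 to 1597 with each library left out. The causes were not tested.

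Depth limits the inducible genes in the lens, where Psmb8 and Psmb9 rest on 3 and 0 reads over the Ctrl group, and 3 libraries per group limit all comparisons. Gene counts cannot tell isoforms apart.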

Other observations

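The genes whose log2 levels were most like the mean of Psmb8, Psmb9 and Psmb10 over the 12 mouse libraries, each table centred on its own mean, were Gpnmb (Pearson r = 0.97), Atp6v0e (0.96), Cd163 (0.96) and Man1a (0.96), among 11208 genes compared. Gpnmb and Cd163 are known from macrophages. The libraries of a table fall into 2 groups and share their scaling. For the genes named here, the coefficients were 0.98 to 1.00 within the 6 lens libraries, and 0.27 to 0.88 within the 6 NLPC libraries.

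On its chromosome, the 50 tested genes nearest to Psmb8 had a median log2 fold change of 0.19 in the lens, with 8 called higher and 1 lower, against 8.38% and 3.88% of all genes. Those nearest to Psmb10 had a median of -0.29 in NLPCs, with 4 called lower, against 5.96% of all genes. Those nearest to PSMB8 had a median of -0.09 in HLE-B3 cells, with 9 called lower and 3 higher, against 16.3% and 17% of all genes.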
